A study of Homo sapiens with 12 samples.

Results

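The mRNAs described here are 41 genes that the literature lists as direct targets of the miR-34 miRNAs, chosen by name and not by their values. Targets assigned to cell cycle or apoptosis families were left out, and earlier results of these data were known when the list was made. They were read from 60580 gene symbols listed for each RNA-seq library of HCT116, an established human colorectal cancer cell line with functional p53. The *WT* cells were single-cell clones obtained after transfection with the Cas9 plasmid pSpCas9 without guide RNAs. The *miR-34a/b/c-KO* cells (KO) were single-cell clones in which CRISPR/Cas9 had removed the regions encoding the precursors of miR-34a and of miR-34b/c. It is not stated whether the replicates of a genotype were different clones, so that differences between genotypes and differences between clones cannot be told apart. Both genotypes were treated with the vehicle DMSO or with 5-fluorouracil (5-FU, 4 µM), a pyrimidine analog, for 48 h. The labels give 3 replicates per group, but 2 of them, labelled *WT* with 5-FU replicate 1 and *WT* with DMSO replicate 3, hold the same count for each of the 60580 genes. The former was left out, so that *WT* with 5-FU rests on 2 libraries and the analysis on 11. Total counts were 22831415 to 39064210 per library.

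MiR-34 miRNAs are encoded by genes that p53 activates. A mature miRNA guides Argonaute proteins to mRNAs that pair with its seed, bases 2 to 8, mostly in the 3′ UTR, and the mRNA is then translated less or degraded. A target defined by a reporter assay or by its protein therefore need not change as an mRNA, and proteins were not measured in these data. Targets of miR-34 include receptors and ligands of the Notch pathway, growth factor receptors such as MET and AXL, the immune checkpoint ligand PD-L1, the deacetylase SIRT1 and regulators of the cell cycle.

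The mature sequences of miR-34a and miR-34b are shown because their seeds, in capitals, define the match searched for in the targets. They are RefSeq sequences with positions on GRCh38.p14, and miR-34c is named only.
hsa-miR-34a-5p, chr1:9151735-9151756, minus strand: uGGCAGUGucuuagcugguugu
hsa-miR-34b-5p, chr11:111512950-111512972, plus strand: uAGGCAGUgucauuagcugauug

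The match to bases 2 to 8 of miR-34a is CACTGCC, and the match to those of miR-34b is ACTGCCT, which overlaps it by 6 bases. Both were searched on the mRNA strand of the 3′ UTR of each gene's canonical transcript (GENCODE 44, GRCh38). The following stretches of 22 bases hold CACTGCC, in capitals, in 3′ UTRs of targets that were higher (*NOTCH1*, *IL6R*, *L1CAM*, *AXL*, *VAMP2*, *ULBP2*, *MAP3K9*), lower (*LDHA*, *KLF4*, *HNF4A*) or not called (*MET*, *JAG1*) in KO cells. They are shown so that the letters of the sites can be read beside the changes, and each match ends 1 base before the end of its stretch. That last base lies opposite base 1 of the miRNA.
*NOTCH1*, upstream site, chr9:136495884-136495905, minus strand: attttacacagaaaCACTGCCt
*NOTCH1*, downstream site, chr9:136495155-136495176, minus strand: tttctggggaaagaCACTGCCt
*IL6R*, upstream site, chr1:154465440-154465461, plus strand: caaaagatgcttctCACTGCCa
*L1CAM*, chrX:153861942-153861963, minus strand: ggcacacctcctccCACTGCCc
*AXL*, chr19:41259934-41259955, plus strand: ggatccaagctaagCACTGCCa
*VAMP2*, last site, chr17:8159557-8159578, minus strand: gtgggggtactagtCACTGCCa
*ULBP2*, chr6:149948851-149948872, plus strand: cccaatagctcattCACTGCCt
*MAP3K9*, chr14:70729783-70729804, minus strand: cttgatagacctggCACTGCCt
*LDHA*, chr11:18407524-18407545, plus strand: cacctctgacgcacCACTGCCa
*KLF4*, chr9:107485719-107485740, minus strand: gtggatatgacccaCACTGCCa
*HNF4A*, first site, chr20:44429815-44429836, plus strand: taagggccacatccCACTGCCa
*MET*, upstream site, chr7:116796161-116796182, plus strand: tccaatggttttttCACTGCCt
*MET*, downstream site, chr7:116798275-116798296, plus strand: aattagatacttgtCACTGCCt
*JAG1*, 1 of its 2 sites, chr20:10638189-10638210, minus strand: tttgccatagagtaCACTGCCt

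Of the 41 targets, 30 (73.2%) held at least 1 CACTGCC, against 17.6% of the 13091 genes tested that had an annotated 3′ UTR. The 3′ UTRs of the targets were also longer, with a median of 1814 bases against 1281. Seed matches may have served to choose the published targets, so that an excess of them can follow from how the list was made. These shares come from sequence and say nothing about changes in the mRNAs. ACTGCCT was found in 21 targets (51.2%, against 15.8% of genes), and 32 targets (78.0%, against 25.0%) held one or the other. *CD274* and *LRP6* held ACTGCCT and no CACTGCC. Neither word was found in *CD44*, *INHBB*, *CRKL*, *SIRT1*, *NAMPT*, *YY1*, *GMNN*, *STMN1* and *FNDC3B*, which says only that these letters are not in the 3′ UTR searched. The targets held 44 matches to CACTGCC, and for 43 the whole stretch of 22 bases lay in the 3′ UTR. Of these 43, at least 1 was followed by A in 16 targets, as in *AXL*, *IL6R*, *LDHA*, *KLF4* and *HNF4A*, which makes an 8mer site.

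Levels are given as CPM, the counts per 1000000 counts of a library after scaling by upper-quartile factors. Differences were tested in 1 edgeR model over the 16123 genes for which 1 library or more reached 20 counts, and adjusted over all of them (FDR). A gene was called when FDR was under 0.05 and it differed more than 1.5-fold. *KIT*, the stem cell factor receptor, was not tested, since it had 0 counts in all 11 libraries. For the other targets, 38 reached 20 counts in every library, *HNF4A* in 7 libraries, and *CSF1R* only in the 2 libraries of *WT* cells with 5-FU. Corrected for gene length, the targets of *WT* cells with DMSO spanned 0.05 CPM per kb of exon (*CSF1R*) to 237 CPM per kb (*LDHA*). As checks of the labels, *CDKN1A*, the p53-induced mRNA of p21, rose in *WT* cells from 167 ± 1.18 CPM (SD, n = 3) with DMSO to 2078 ± 143 CPM (SD, n = 2) with 5-FU, a log2 fold change of 3.64 (SE 0.05, FDR 5.26e-17). In KO cells it was at 469 ± 17.5 CPM (SD, n = 3) with DMSO and 2481 ± 51.9 CPM (SD, n = 3) with 5-FU. The row of the miR-34a hairpin was at 0 in all libraries, *WT* included, and checks nothing. *MIR34AHG*, its host transcript, was with DMSO at 4.84 ± 0.467 CPM (SD, n = 3) in *WT* and 22.2 ± 0.295 CPM (SD, n = 3) in KO cells, and is not limited to the deleted part.

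With DMSO, 6 of 40 targets were higher in KO than in *WT* cells, where 9.10% of all genes tested were higher. These were *NOTCH1*, *AXL*, *IL6R*, *L1CAM*, *VAMP2* and *FNDC3B*. Lower in KO cells were *LDHA*, *KLF4* and *HNF4A*, 3 of 40 targets against 4.97% of all genes. At FDR alone, 15 targets were higher (24.5% of all genes) and 12 were lower (21.9% of all genes). All KO libraries lay above all *WT* libraries for 18 targets (30.1% of all genes) and below them for 15 (27.4% of all genes). The median log2 fold change was 0.06 over the 40 targets and 0.03 over all genes tested. In RNA of whole cultures, fewer cells with an mRNA and less mRNA per cell cannot be told apart.

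With 5-FU, 4 of 40 targets were higher in KO than in *WT* cells, against 7.58% of all genes. They were *NOTCH1*, *CD274*, *ULBP2* and *MAP3K9*. Another 4, *CSF1R*, *LDHA*, *HNF4A* and *TPD52*, were lower, against 10.6% of all genes. *CSF1R* passed the filter on counts only through *WT* cells with 5-FU, so that its call was favoured by the filter. FDR alone gave 15 higher targets (21.6% of all genes) and 9 lower ones (28.0% of all genes), with a median log2 fold change of 0.09 over the targets and −0.05 over all genes. The libraries did not overlap for 20 targets that were higher (27.9% of all genes) and 11 that were lower (35.1% of all genes). Over all genes the split of 1222 higher and 1702 lower turned to 1547 and 1367 when libraries were scaled by total counts only, an alternative chosen after seeing the data. The comparisons with DMSO and with 5-FU share no library. They may compare the same clones, and a fixed difference between clones would recur in both. *NOTCH1* was higher and *LDHA* and *HNF4A* were lower in both. At FDR alone, 10 targets were higher in both, 6 lower in both, and 7 were in neither (*NOTCH2*, *MET*, *LRP6*, *INHBB*, *RRAS*, *FOXP1* and *E2F5*). The matching shares of all genes were not counted, so that these numbers have no background beside them. *YY1* and *GMNN* were lower in KO cells with DMSO and higher with 5-FU.

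**Figure D1:**
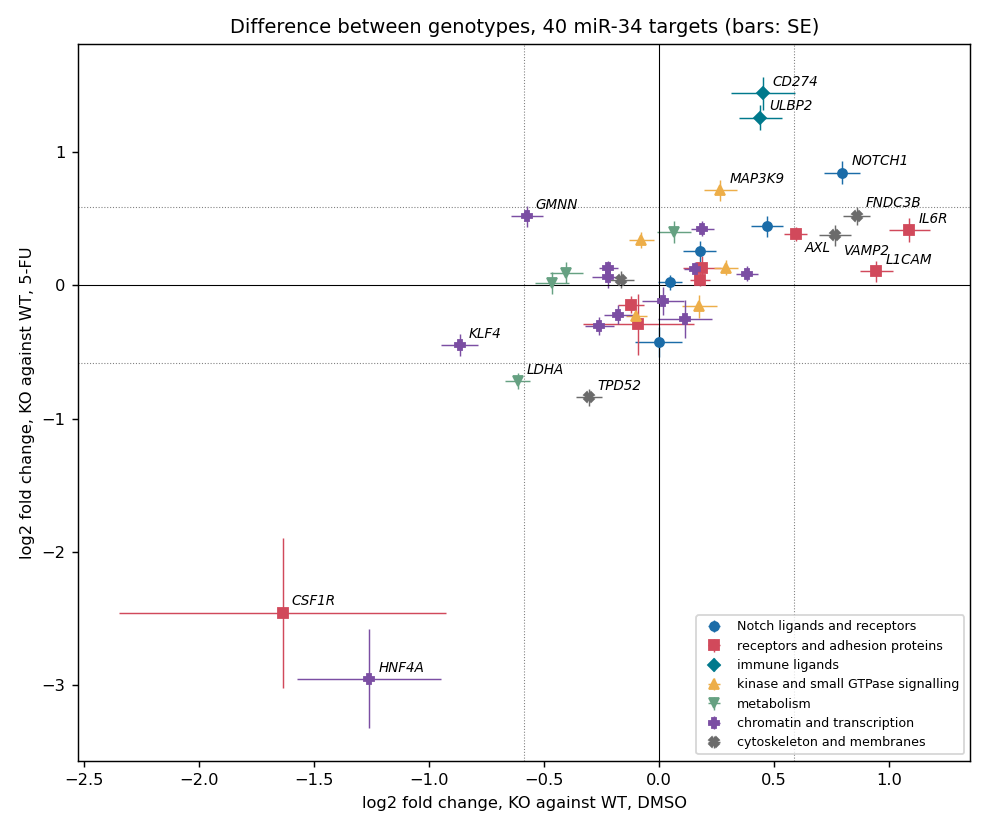
Log2 fold change between KO and *WT* cells with DMSO (horizontal axis) and with 5-FU (vertical axis) for the 40 targets tested. Points are coloured by role, error bars are SE, and dotted lines mark a fold change of 1.5. *NOTCH1* lies past the line at both treatments, *IL6R* and *L1CAM* only with DMSO, *CD274* and *ULBP2* only with 5-FU, and *HNF4A* lies far below 0 at both.

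Treatment with 5-FU raised 9 of 40 targets in *WT* cells, against 18.5% of all genes, and lowered 3, against 9.38%. In KO cells 7 rose, against 13.3% of all genes, and 4 fell, against 12.0%. *NOTCH1*, *AXL*, *INHBB*, *CD274*, *ULBP2* and *MAP3K9* rose and *LDHA* fell in both genotypes. The share of all genes called in both genotypes was not counted. *CSF1R*, *IL6R* and *L1CAM* rose and *NAMPT* and *GMNN* fell in *WT* cells, while *KLF4* rose and *RRAS*, *FOXP1* and *HNF4A* fell in KO cells. The rise of *CSF1R* was favoured by the filter, which it passed only in *WT* cells with 5-FU. Whether the responses differed was tested as an interaction, the response in KO minus that in *WT* cells. It was positive for *CD274*, *ULBP2* and *GMNN* (3 of 40, against 3.42% of all genes) and negative for *IL6R*, *L1CAM* and *HNF4A* (3 of 40, against 6.66%). Over all genes 551 interactions were positive and 1073 negative, against 703 and 674 with DESeq2. With total counts only, 2508 genes rose and 1453 fell with 5-FU in KO cells, in place of 2137 and 1932. At FDR alone, 17 targets were higher with 5-FU in *WT* cells (31.9% of all genes) and 16 lower (28.3%), and in KO cells again 17 were higher (26.6%) and 16 lower (33.8%). The interaction at FDR alone was positive for 11 targets (10.1% of all genes) and negative for 9 (16.0%). The libraries with 5-FU lay apart from those with DMSO for 17 higher (36.5% of all genes) and 14 lower targets (32.3%) in *WT* cells, and for 17 higher (30.4%) and 17 lower ones (38.4%) in KO cells.

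In an alternative fit with 1 factor of unwanted variation (RUVg), which was itself 98.2% between treatments, edgeR called 0 targets for 5-FU in either genotype, with 9 in *WT* and 7 in KO cells at an unadjusted p under 0.05. In that fit, 6 other calls were lost, those of *NOTCH1*, *LDHA* and *HNF4A* between genotypes with DMSO and the interactions of *CD274*, *ULBP2* and *HNF4A*. The positive interaction of 1 target (*GMNN*) and the negative ones of *IL6R* and *L1CAM* remained called. Called there and not above were *ULBP2* and *GMNN* between genotypes with DMSO, *DLL1* with 5-FU and the interaction of *TPD52*. All genes called for 5-FU in that fit numbered 3 in *WT* and 1 in KO cells. It is not the fit of the paper, which used DESeq2 after RUVg and reported many mRNAs regulated by 5-FU.

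**Figure D2:**
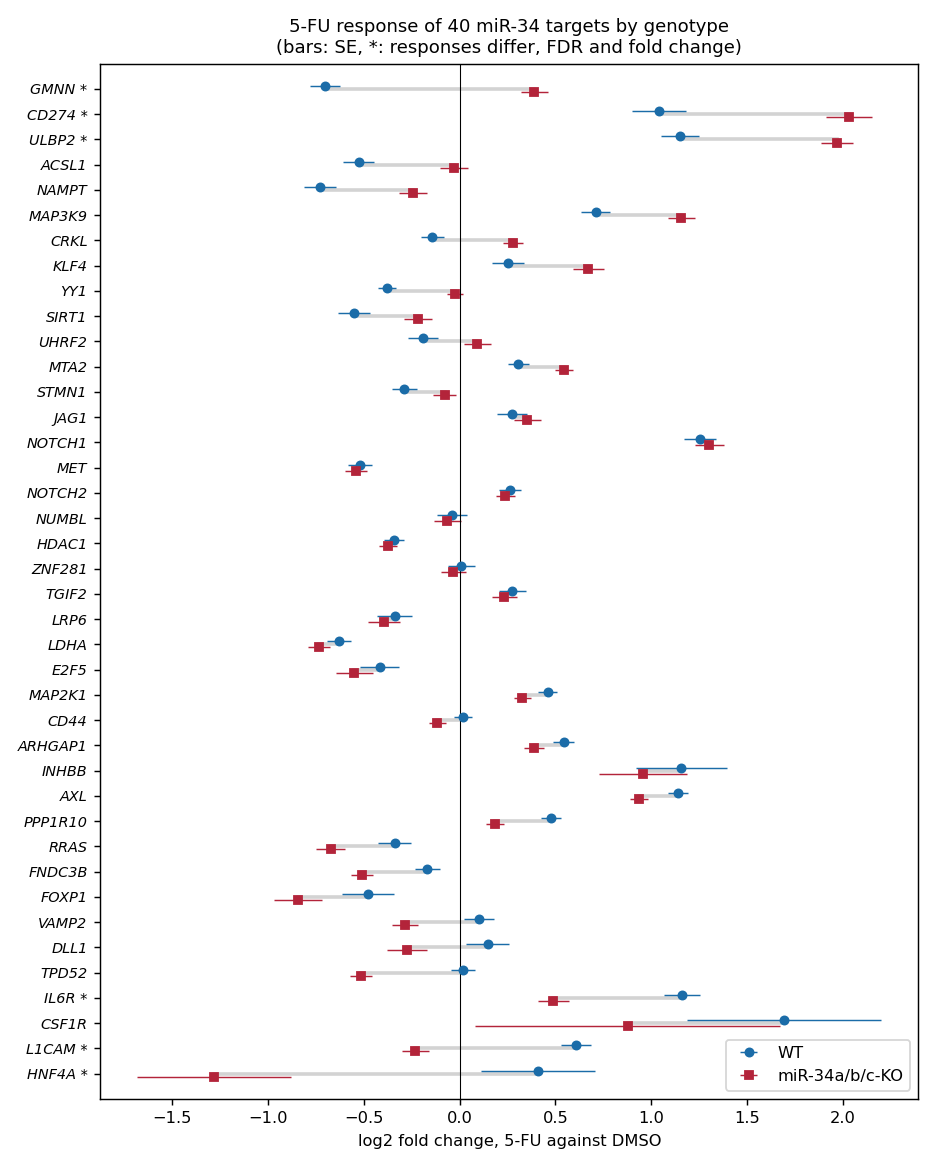
Log2 fold change between 5-FU and DMSO in *WT* cells (circles) and KO cells (squares) for the 40 targets tested, ordered by the difference between them, with SE as bars. Asterisks mark the 6 targets whose responses differed. *GMNN* fell in *WT* cells and lies above 0 in KO cells, whereas *L1CAM* and *HNF4A* lie on the other sides.

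Among the 5 Notch ligands, receptors and regulators in the list, *NOTCH1* alone was called between the genotypes. *NOTCH1*, a receptor that is cleaved on ligand binding, gave 64.9, 60.8 and 71.2 CPM in the *WT* libraries and 117, 117 and 109 CPM in the KO libraries with DMSO. After 5-FU it was at 175 and 138 CPM in *WT* and 270.2, 282 and 293 CPM in KO libraries. The libraries of KO cells lay above those of *WT* cells at both treatments without overlap, and each genotype lay higher with 5-FU. The log2 fold change between genotypes was 0.80 (SE 0.08, FDR 4.69e-07) with DMSO and 0.85 (SE 0.08, FDR 6.38e-07) with 5-FU. It rose with 5-FU by 1.25 (SE 0.08, FDR 2.25e-09) in *WT* and 1.30 (SE 0.08, FDR 3.58e-10) in KO cells. The interaction was 0.05 (SE 0.11, FDR 0.774). In the RUVg fit the difference with DMSO was 0.27 (FDR 0.344).

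*NOTCH1* lies on chromosome 9 (136494433 to 136546048, GRCh38). The 20 tested genes on each side of it had a median log2 fold change between genotypes of 0.60 with DMSO and 0.53 with 5-FU. Of these 40 neighbours, 92.5% lay above 0 with DMSO and 90.0% with 5-FU. *NOTCH1* itself exceeded the median of its neighbours by 0.19 with DMSO and by 0.32 with 5-FU. For *NUMBL*, which was not called, the excess over its own neighbours was larger, 0.32 with DMSO and 0.40 with 5-FU. The part of the neighbourhood in the *NOTCH1* result was not tested. Among the other 39 targets the neighbours' median reached at most 0.21 with DMSO and 0.27 with 5-FU, both at *E2F5*. The neighbours of *DLL1* had a median of −0.32 with 5-FU.

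**Figure D3:**
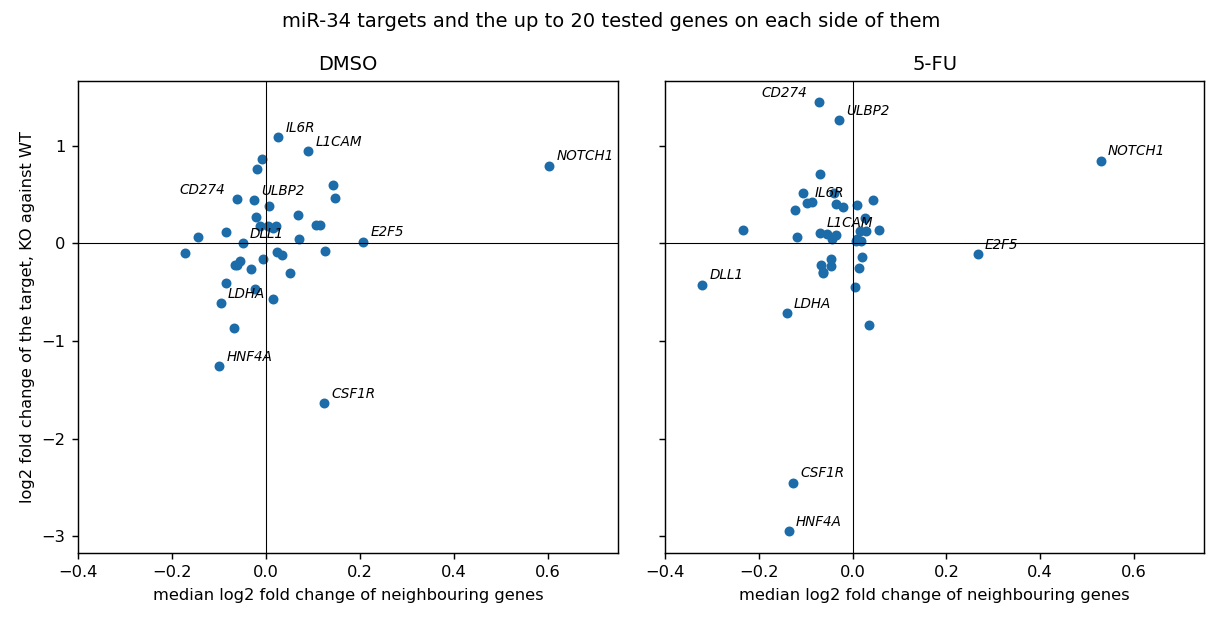
Log2 fold change between KO and *WT* cells for each of the 40 targets (vertical axis) against the median of up to 20 tested genes on each side of it (horizontal axis), with DMSO (left) and with 5-FU (right). *NOTCH1* lies to the right of all other targets at both treatments, at 0.60 and 0.53, whereas *IL6R*, *L1CAM*, *CD274* and *ULBP2* have neighbours with medians near 0.

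*JAG1*, a Notch ligand, gave 46.2, 41.6 and 51.4 CPM in *WT* and 51.97, 53.5 and 52.2 CPM in KO libraries with DMSO, a log2 fold change of 0.18 (SE 0.07, FDR 0.052). With 5-FU the values were 56.4 and 56.01 CPM in *WT* and 62.6, 68.1 and 70.8 CPM in KO libraries, a log2 fold change of 0.26 (SE 0.08, FDR 0.0116). The lowest KO library lay above the highest *WT* library at both treatments, but neither difference was called. For *DLL1*, another ligand, the log2 fold change was −0.42 (SE 0.11, FDR 0.00564) with 5-FU. The receptor *NOTCH2* differed by 0.05 (SE 0.05, FDR 0.494) with DMSO and 0.02 (SE 0.06, FDR 0.755) with 5-FU. *NUMBL*, which encodes an antagonist of Notch signalling, was higher in KO cells at FDR alone, by 0.47 (SE 0.07, FDR 5.07e-05) and 0.44 (SE 0.08, FDR 0.000218). Of 29 tested genes of the Notch pathway outside the 41 targets, 2 were higher and 1 lower in KO cells with DMSO, and 1 was higher and 2 lower with 5-FU. They comprised *NCSTN*, a subunit of the protease that cleaves Notch (0.77, DMSO), *MAML2*, a coactivator (0.84, DMSO), *NRARP*, a feedback regulator (0.70, 5-FU), *RFNG* (−0.60, 5-FU) and *DTX4* (−1.30 and −1.46). Over all genes, 9.10% were higher and 4.97% lower with DMSO, and 7.58% and 10.6% with 5-FU. In response to 5-FU, 3 of the 29 rose (18.5% of all genes) and 3 fell (9.38%) in *WT* cells. In KO cells 5 rose (13.3%) and 4 fell (12.0%). The interaction was called for *NOTCH3* (0.60) and *MAML2* (−0.63).

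**Figure D4:**
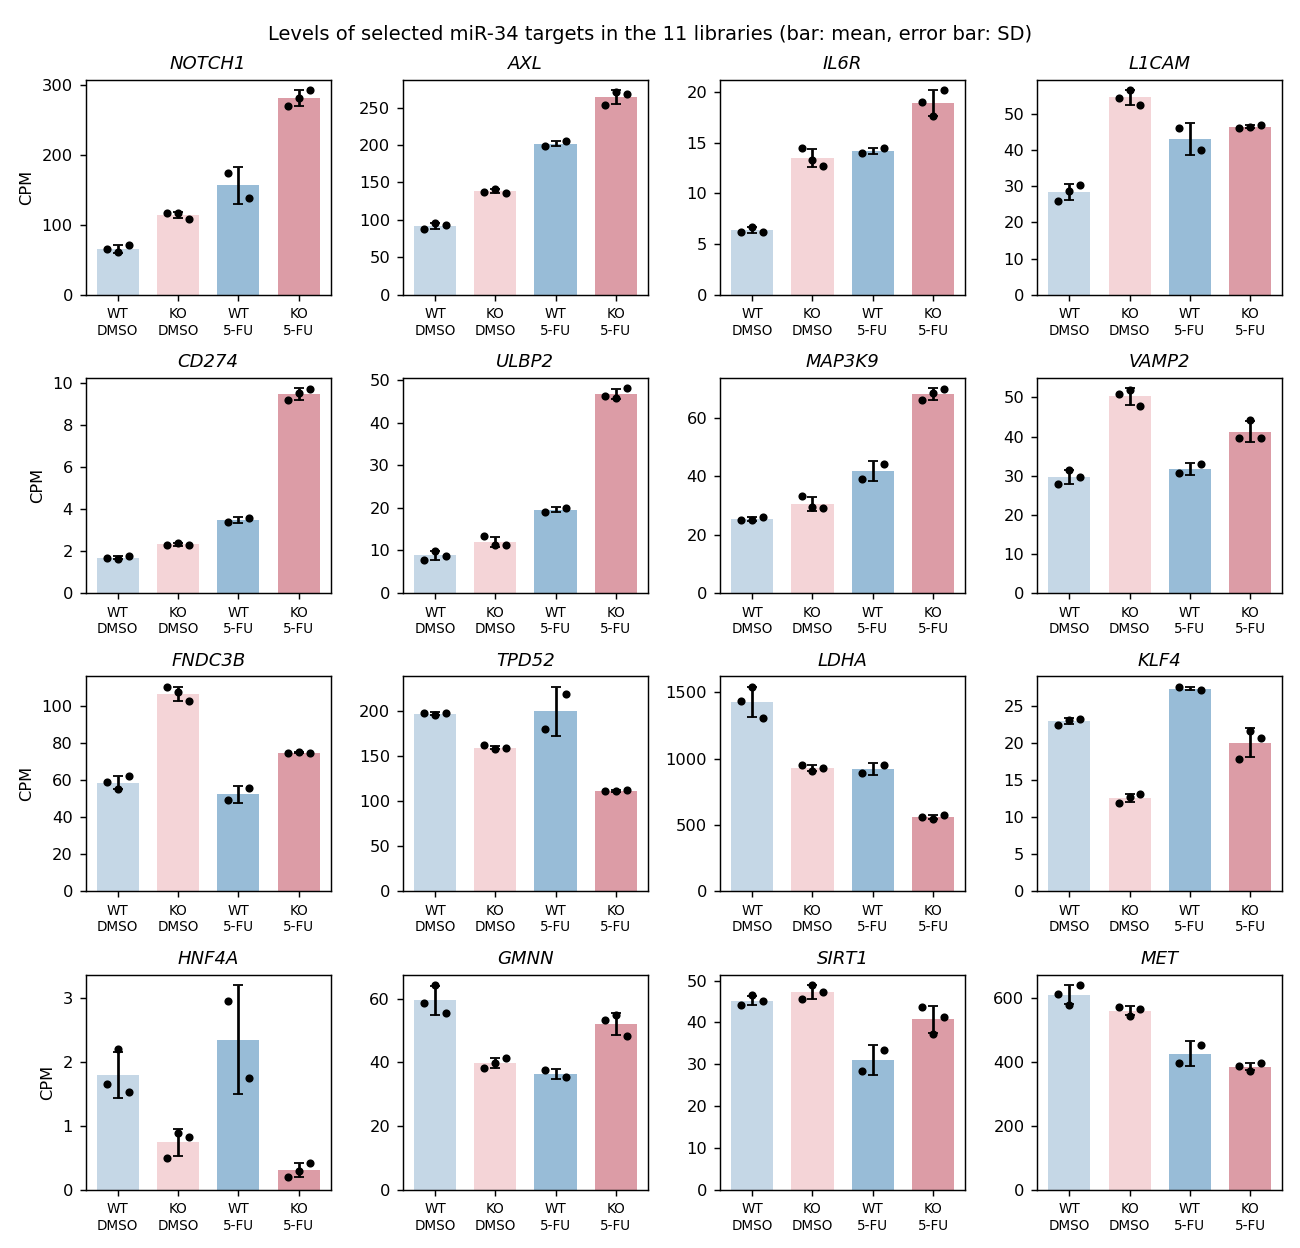
CPM of 16 targets in each library (points) with mean (bars) and SD (error bars) for *WT* and KO cells with DMSO and with 5-FU, with 3 libraries per group except 2 for *WT* with 5-FU. KO libraries lie above *WT* libraries at both treatments for *NOTCH1*, *AXL*, *IL6R*, *CD274*, *ULBP2*, *MAP3K9*, *VAMP2* and *FNDC3B*, and below them for *TPD52*, *LDHA*, *KLF4*, *HNF4A* and *MET*.

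Among the receptors and adhesion proteins, *IL6R*, *L1CAM* and *AXL* were higher in KO cells with DMSO. *IL6R*, the ligand-binding chain of the interleukin-6 receptor, gave 6.21, 6.71 and 6.17 CPM in *WT* and 14.5, 13.3 and 12.7 CPM in KO libraries with DMSO. In cells with 5-FU the level was 13.97 and 14.4 CPM in *WT* and 18.99, 17.6 and 20.2 CPM in KO libraries. KO cells with DMSO were thus near the level of *WT* cells with 5-FU. The difference between genotypes was 1.09 (SE 0.09, FDR 7.24e-08) on the log2 scale with DMSO and 0.41 (SE 0.09, FDR 0.00117) with 5-FU. The response to 5-FU was 1.16 in *WT* and 0.49 in KO cells, an interaction of −0.67 (SE 0.13, FDR 0.00115).

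*L1CAM*, a cell adhesion molecule, gave 25.95, 28.8 and 30.3 CPM in *WT* and 54.5, 56.6 and 52.6 CPM in KO libraries with DMSO. With 5-FU the levels were 46.2 and 39.97 CPM in *WT* and 46.1, 46.4 and 46.9 CPM in KO libraries, which overlap. *L1CAM* was higher in KO cells with DMSO by 0.94 (SE 0.07, FDR 2.87e-08), whereas with 5-FU the difference was 0.11 (SE 0.08, FDR 0.268). 5-FU raised it in *WT* cells by 0.61 (SE 0.08, FDR 5.59e-06), and in KO cells the value was −0.23 (SE 0.07, FDR 0.00924), an interaction of −0.84 (SE 0.11, FDR 3.39e-05). The rise in *WT* cells was not called without *WT* DMSO replicate 1 (0.55), without *WT* 5-FU replicate 2 (0.49) or with DESeq2 (0.58). With the replicate number of the labels as a block it was 0.58 and not called either.

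*AXL*, the receptor tyrosine kinase for GAS6, was at 91.7 ± 4.03 CPM (SD, n = 3) in *WT* against 138 ± 2.97 CPM (SD, n = 3) in KO cells with DMSO, just past the fold change required (1.51-fold, log2 0.59, SE 0.05, FDR 6.92e-08). The call was lost with TMM factors (0.58), with DESeq2 (0.57), without the filter on low counts (0.57), and without *WT* DMSO replicate 1 (0.56) or KO DMSO replicate 2 (0.58). With 5-FU *AXL* was at 202 ± 3.94 CPM (SD, n = 2) in *WT* and 264 ± 9.16 CPM (SD, n = 3) in KO cells, a difference of 0.39 (SE 0.05, FDR 1.86e-05). It rose with 5-FU in both genotypes, by 1.14 (SE 0.05, FDR 2.74e-11) and 0.94 (SE 0.05, FDR 8.2e-11). *INHBB*, which encodes a subunit of activins and inhibins, rose with 5-FU by 1.16 (SE 0.24, FDR 0.000516) in *WT* and 0.96 (SE 0.23, FDR 0.00185) in KO cells and did not differ past the threshold between genotypes. *LRP6*, a Wnt co-receptor, was lower with 5-FU at FDR alone, with log2 fold changes of −0.34 (SE 0.09, FDR 0.00475) and −0.40 (SE 0.08, FDR 0.000613).

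*MET*, the receptor of hepatocyte growth factor, gave 612, 579 and 639 CPM in *WT* and 573, 544 and 564 CPM in KO libraries with DMSO. The values with 5-FU were 398 and 454 CPM in *WT* and 388, 373 and 395 CPM in KO libraries. All KO values lay below those of *WT* cells at the same treatment, but the differences of −0.12 (SE 0.06, FDR 0.0821) and −0.14 (SE 0.06, FDR 0.0646) did not pass FDR. In response to 5-FU, *MET* differed at FDR alone, by −0.52 (SE 0.06, FDR 2.79e-06) in *WT* and −0.54 (SE 0.06, FDR 4.23e-07) in KO cells. Without *WT* 5-FU replicate 3 the value in *WT* cells was −0.61, which was called. *CD44*, the hyaluronan receptor, gave 1022, 1058 and 1077 CPM in *WT* and 1209, 1145 and 1215 CPM in KO libraries with DMSO. With 5-FU it gave 1047 and 1082 CPM in *WT* and 1087, 1091 and 1116 CPM in KO libraries. The levels of *CD44* were within a narrow range in all groups, and the differences between genotypes were 0.18 (SE 0.04, FDR 0.0026) with DMSO and 0.04 (SE 0.05, FDR 0.459) with 5-FU.

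*CSF1R*, the receptor of CSF1 and IL34, was near the limit of detection in all groups. Its counts were 4, 8 and 9 in *WT* and 0, 3 and 3 in KO libraries with DMSO, and 30 and 25 in *WT* and 2, 3 and 6 in KO libraries with 5-FU. Since *WT* cells with 5-FU alone carried it past the filter, a difference from that group was bound to appear among the genes tested. The fitted log2 fold change between genotypes with 5-FU was −2.45 (SE 0.56, FDR 0.00182). From the 11 and 55 summed counts, the ratio of KO to *WT* cells was 0.178, with an exact 95% interval of 0.0841 to 0.344. That interval covers counting error only, and not the selection by the filter. Of 9 tested ligands and partners of these receptors, 0 were called between genotypes at either treatment. With 5-FU, *GAS6* (0.72 and 1.02 in *WT* and KO cells), *CSF1* (1.43 and 1.56) and *MERTK*, a relative of *AXL* (0.999 and 1.07), were among 4 that rose. The other was *IL34*, named after its values were seen, with 0, 1 and 1 counts in *WT* and 1, 0 and 0 in KO libraries with DMSO, and 14 and 25 in *WT* and 9, 2 and 6 in KO libraries with 5-FU. *IL34* passed the filter only through the *WT* library with 25 counts, so that a rise with 5-FU in *WT* cells was bound to appear. *KITLG*, the KIT ligand (−1.61 and −1.18), and *PROS1* (−0.79 and −0.72) were the 2 that fell. Over all genes, 18.5% rose and 9.38% fell with 5-FU in *WT* cells, and 13.3% and 12.0% in KO cells.

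Both immune ligands were higher in KO than in *WT* cells with 5-FU. *CD274*, which encodes PD-L1, the ligand of the inhibitory T cell receptor PD-1, gave 1.66, 1.63 and 1.77 CPM in *WT* and 2.30, 2.38 and 2.27 CPM in KO libraries with DMSO. After 5-FU it was at 3.39 and 3.60 CPM in *WT* and 9.20, 9.55 and 9.73 CPM in KO libraries. KO libraries lay above *WT* libraries at both treatments, with the widest gap with 5-FU. The difference between genotypes was 0.45 (SE 0.14, FDR 0.0148) with DMSO, at FDR alone, and 1.44 (SE 0.13, FDR 1.4e-07) with 5-FU. 5-FU raised *CD274* 2.06-fold in *WT* and 4.09-fold in KO cells, an interaction of 0.99 (SE 0.19, FDR 0.00123).

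*ULBP2*, a stress-induced ligand of the activating receptor NKG2D on natural killer cells, gave 7.87, 9.84 and 8.77 CPM in *WT* and 13.3, 11.3 and 11.2 CPM in KO libraries with DMSO. In cells with 5-FU the level was 19.2 and 19.9 CPM in *WT* and 46.3, 45.9 and 48.1 CPM in KO libraries. As with *CD274*, the groups did not overlap between genotypes. The log2 fold change between genotypes was 0.44 (SE 0.09, FDR 0.00117) with DMSO, at FDR alone, and 1.26 (SE 0.09, FDR 1.85e-08) with 5-FU. It rose 2.22-fold with 5-FU in *WT* and 3.92-fold in KO cells, an interaction of 0.82 (SE 0.13, FDR 0.000282). In the RUVg fit the interaction of *CD274* (0.96, FDR 0.0725) and that of *ULBP2* (0.57, FDR 0.0855) did not pass the threshold.

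Of 5 targets in kinase and small GTPase signalling, *MAP3K9* was called between the genotypes. *MAP3K9*, the mixed lineage kinase MLK1, gave 25.2, 24.9 and 26.2 CPM in *WT* and 33.4, 29.4 and 28.99 CPM in KO libraries with DMSO, and 39.3 and 44.1 CPM in *WT* and 66.2, 68.5 and 70.04 CPM in KO libraries with 5-FU. All KO libraries lay above the *WT* libraries of the same treatment. The difference was 0.27 (SE 0.07, FDR 0.0064) with DMSO, at FDR alone, and 0.71 (SE 0.08, FDR 1.37e-06) with 5-FU. It rose with 5-FU by 0.71 (SE 0.08, FDR 7.53e-07) in *WT* and 1.16 (SE 0.07, FDR 5.33e-10) in KO cells. *RRAS*, a small GTPase, fell with 5-FU in KO cells with a log2 fold change of −0.67 (SE 0.08, FDR 1.21e-06) and was lower at FDR alone in *WT* cells (−0.34). Scaled by total counts only, the value in KO cells was −0.58 and no longer called. *MAP2K1*, the kinase MEK1, was higher with 5-FU at FDR alone in *WT* (0.46) and KO cells (0.33). *CRKL*, an adaptor protein, differed at FDR alone in opposite directions, with −0.14 (SE 0.06, FDR 0.0477) in *WT* and 0.28 (SE 0.05, FDR 0.000267) in KO cells. *ARHGAP1* was higher with 5-FU at FDR alone (0.54 and 0.39).

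Of the 4 metabolic targets, *LDHA* was called between the genotypes. *LDHA*, the lactate dehydrogenase subunit with the highest level per kb of the targets, gave 1434, 1537 and 1305 CPM in *WT* and 953, 909 and 931 CPM in KO libraries with DMSO. The values with 5-FU were 889 and 954 CPM in *WT* and 563, 544 and 572 CPM in KO libraries. KO libraries lay below *WT* libraries at both treatments, and KO cells with DMSO were near *WT* cells with 5-FU. The difference between genotypes was −0.61 (SE 0.06, FDR 1.9e-07) with DMSO and −0.72 (SE 0.06, FDR 1.09e-07) with 5-FU. 5-FU lowered *LDHA*, with log2 fold changes of −0.63 (SE 0.06, FDR 2.77e-07) in *WT* and −0.73 (SE 0.06, FDR 9.81e-09) in KO cells. Without *WT* DMSO replicate 2, the difference with DMSO (−0.56) and the response of *WT* cells (−0.57) were not called, nor was the latter without *WT* 5-FU replicate 2 (−0.58). In the RUVg fit the difference with DMSO was −0.23 (FDR 0.274).

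*SIRT1*, an NAD-dependent deacetylase with p53 among its substrates, gave 44.1, 46.5 and 45.1 CPM in *WT* and 45.6, 48.9 and 47.4 CPM in KO libraries with DMSO, which overlap. With 5-FU it gave 28.4 and 33.5 CPM in *WT* and 43.7, 37.3 and 41.2 CPM in KO libraries, which do not. The difference between genotypes was 0.06 (SE 0.07, FDR 0.501) with DMSO and, at FDR alone, 0.40 (SE 0.08, FDR 0.000899) with 5-FU. Its level was lower with 5-FU at FDR alone in *WT* cells (−0.55, SE 0.08, FDR 2.84e-05) and KO cells (−0.22, SE 0.07, FDR 0.0186), and without *WT* 5-FU replicate 3 the former was −0.67 and called. The interaction was 0.33 (SE 0.11, FDR 0.0354), under the fold change required. *NAMPT*, which encodes the enzyme that salvages nicotinamide to NAD, the cofactor of SIRT1, fell with 5-FU in *WT* cells with a log2 fold change of −0.73 (SE 0.08, FDR 1.23e-06). Its libraries of *WT* cells with 5-FU were apart (85.5 and 114 CPM), and without replicate 2 the value was −0.54 and not called. Without replicate 3 its interaction, 0.48 (SE 0.11, FDR 0.00434) with all libraries, was 0.70 and called. *ACSL1*, an acyl-CoA synthetase, was lower in KO cells with DMSO at FDR alone (−0.40, SE 0.07, FDR 0.000245), as was *NAMPT* (−0.46, SE 0.07, FDR 7.26e-05), and neither differed past FDR with 5-FU (0.10 and 0.02).

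Of 12 targets in chromatin and transcription, *HNF4A* and *KLF4* were lower in KO cells with DMSO, and *HNF4A* also with 5-FU. *HNF4A*, a transcription factor of the intestinal and liver epithelium, was low, with 5 to 114 counts per library. It gave 1.66, 2.21 and 1.53 CPM in *WT* and 0.501, 0.894 and 0.823 CPM in KO libraries with DMSO. After 5-FU it was at 2.95 and 1.75 CPM in *WT* and 0.198, 0.297 and 0.418 CPM in KO libraries. The KO libraries lay below the *WT* libraries at both treatments. The difference was −1.26 (SE 0.31, FDR 0.00345) with DMSO and −2.95 (SE 0.37, FDR 7.65e-06) with 5-FU. In KO cells *HNF4A* fell with 5-FU with a log2 fold change of −1.28 (SE 0.40, FDR 0.0112), which missed the threshold without KO 5-FU replicate 1 (−1.06, FDR 0.0534). Its interaction was −1.69 (SE 0.50, FDR 0.0208). It missed the threshold without KO DMSO replicate 2 (−1.55) or 3 (−1.60), *WT* 5-FU replicate 2 (−1.25) or KO 5-FU replicate 1 (−1.47), with FDR values of 0.0534 to 0.103.

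*KLF4*, a zinc-finger factor of differentiating epithelium, gave 22.5, 23.2 and 23.3 CPM in *WT* and 11.9, 12.7 and 13.1 CPM in KO libraries with DMSO. In cells with 5-FU the level was 27.6 and 27.2 CPM in *WT* and 17.9, 21.7 and 20.7 CPM in KO libraries. KO libraries were lower than *WT* libraries at each treatment, with log2 fold changes of −0.87 (SE 0.08, FDR 2.43e-07) with DMSO and, at FDR alone, −0.45 (SE 0.08, FDR 0.000317) with 5-FU. *KLF4* rose with 5-FU in KO cells by 0.67 (SE 0.08, FDR 2.31e-06). The markers of colorectal epithelium *EPCAM*, *CDH1*, *KRT8*, *KRT18*, *KRT19* and *CLDN7* were all expressed, with summed levels of 5472 to 5772 CPM in *WT* and 5615 to 5820 CPM in KO libraries with DMSO. With 5-FU the sums were 11345 to 12427 CPM in *WT* and 8724 to 9188 CPM in KO libraries, and 1 of the 6, *KRT18*, was lower in KO cells. At FDR alone, 1 was higher (24.5% of all genes) and 3 lower (21.9%) in KO cells with DMSO. With 5-FU, 0 were higher (21.6%) and 4 lower (28.0%), and the median log2 fold change between genotypes was −0.33. Of the 6, 4 rose with 5-FU in either genotype, where 18.5% (*WT*) and 13.3% (KO) of all genes rose. Their part in the differences of *HNF4A* and *KLF4* was not tested.

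*GMNN* encodes geminin, which blocks relicensing of replication origins. It gave 58.5, 64.2 and 55.4 CPM in *WT* and 38.4, 39.7 and 41.3 CPM in KO libraries with DMSO, and 37.5 and 35.3 CPM in *WT* and 53.1, 54.98 and 48.3 CPM in KO libraries with 5-FU. KO libraries were lower than all *WT* libraries with DMSO and higher with 5-FU. At FDR alone the difference was −0.58 (SE 0.07, FDR 4.82e-06) with DMSO and 0.52 (SE 0.08, FDR 4.38e-05) with 5-FU. *GMNN* fell with 5-FU in *WT* cells with a log2 fold change of −0.70 (SE 0.08, FDR 8.76e-07), whereas in KO cells the value was 0.39 (SE 0.07, FDR 0.000137), an interaction of 1.09 (SE 0.10, FDR 2.25e-06). The difference with DMSO lay at the edge of the fold change required and was called with TMM factors (−0.59), DESeq2 (−0.60), without *WT* DMSO replicate 3 (−0.62) and without KO DMSO replicate 3 (−0.60). *GMNN* is itself 1 of the 43 S-phase genes of the Seurat package. Of the other 42, 32 fell with 5-FU in *WT* cells, 7 rose and 5 fell in KO cells, and 34 had a positive interaction. With DMSO 6 were lower in KO cells, and with 5-FU 16 were higher. Of 54 G2/M-phase genes, 30 fell in *WT* cells, 13 fell and 1 rose in KO cells, and 13 had a positive interaction. Over all genes, 9.38% fell with 5-FU in *WT* cells, 13.3% rose and 12.0% fell in KO cells, and 3.42% had a positive interaction. Between genotypes, 4.97% were lower in KO cells with DMSO and 7.58% higher with 5-FU. The part of the cell cycle in the *GMNN* result was not tested.

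The other members of this group were not called between the genotypes. *YY1*, a zinc-finger regulator, was lower in KO cells with DMSO (−0.22, SE 0.04, FDR 0.000388) and higher with 5-FU (0.13, SE 0.05, FDR 0.0254). *HDAC1* and *MTA2*, subunits of the NuRD deacetylase complex, were higher in KO cells with DMSO at FDR alone (0.16 and 0.19). *MTA2* was also higher with 5-FU (0.43, SE 0.06, FDR 1.03e-05), and its 5-FU response in KO cells of 0.55 (SE 0.05, FDR 8.25e-08) was called with TMM factors (0.59), DESeq2 (0.60) and total counts only (0.63). Of the other 11 NuRD subunits, 0 were higher (24.5% of all genes) and 8 lower (21.9%) in KO cells with DMSO at FDR alone. Their median log2 fold change was −0.18. With 5-FU, 1 was higher (21.6% of all genes) and 5 lower (28.0%). Among them *CHD3*, a remodelling ATPase, was called, lower in KO cells with DMSO (−0.75) and with 5-FU (−0.93). *FOXP1*, a forkhead factor, fell with 5-FU in KO cells with a log2 fold change of −0.84 (SE 0.13, FDR 2.29e-05) and gave −0.48 (SE 0.13, FDR 0.00569) in *WT* cells. *ZNF281* (−0.18 with DMSO and −0.22 with 5-FU) and *TGIF2*, a corepressor of SMAD signalling (−0.26 and −0.30), were lower in KO cells at FDR alone. *PPP1R10*, a regulatory subunit of protein phosphatase PP1, was higher in KO cells with DMSO at FDR alone (0.38, SE 0.05, FDR 8.54e-06). *UHRF2*, a ubiquitin ligase, was lower there (−0.22, SE 0.07, FDR 0.0172). *E2F5*, a repressive E2F, gave 0.02 (SE 0.09, FDR 0.9) between genotypes with DMSO and was lower with 5-FU at FDR alone in both genotypes (−0.42 and −0.55). Without KO 5-FU replicate 2 its value in KO cells was −0.63 and called.

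Of the cytoskeletal and membrane targets, *VAMP2* and *FNDC3B* were higher in KO cells with DMSO, and *TPD52* was lower with 5-FU. *VAMP2*, a SNARE protein of vesicle fusion, gave 27.9, 31.4 and 29.6 CPM in *WT* and 50.9, 51.9 and 47.9 CPM in KO libraries with DMSO, and 30.7 and 32.9 CPM in *WT* and 39.6, 44.3 and 39.7 CPM in KO libraries with 5-FU. *FNDC3B* gave 58.8, 55.1 and 62.3 CPM in *WT* and 110.0, 107 and 102 CPM in KO libraries with DMSO, and 49.1 and 55.6 CPM in *WT* and 74.8, 75.2 and 74.8 CPM in KO libraries with 5-FU. KO libraries lay above *WT* libraries at both treatments for either gene. The difference of *VAMP2* was 0.76 (SE 0.07, FDR 2.32e-07) with DMSO and 0.38 (SE 0.08, FDR 0.000829) with 5-FU, and that of *FNDC3B* was 0.86 (SE 0.06, FDR 7.96e-09) and 0.52 (SE 0.07, FDR 9.33e-06). For *FNDC3B* the difference with 5-FU was called without *WT* 5-FU replicate 3 (0.61) and with total counts only (0.60).

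*TPD52* gave 198, 195 and 198 CPM in *WT* and 162, 158 and 159 CPM in KO libraries with DMSO. The values with 5-FU were 180.5 and 219 CPM in *WT* and 111, 111 and 112 CPM in KO libraries, all of which lay below the *WT* libraries. Its difference between genotypes was −0.31 (SE 0.06, FDR 0.000393) with DMSO, at FDR alone, and −0.84 (SE 0.06, FDR 2.99e-08) with 5-FU. The interaction of *TPD52* was −0.54 (SE 0.09, FDR 0.000318), and without *WT* 5-FU replicate 2 it was −0.67 and called. *STMN1*, which encodes the microtubule-destabilizing protein stathmin, was lower in KO cells with DMSO at FDR alone (−0.17, SE 0.06, FDR 0.0265) and gave 0.04 (SE 0.06, FDR 0.595) with 5-FU.

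When the targets were sorted by the number of CACTGCC matches, the median log2 fold change between genotypes with DMSO was −0.08 for the 11 targets without a match, 0.05 for the 19 with 1 and 0.14 for the 10 with 2 or more. Single targets spread far more than these medians. Those without a match ranged from −0.58 (*GMNN*) to 0.86 (*FNDC3B*), and those with 2 or more from −1.26 (*HNF4A*) to 1.09 (*IL6R*). With 5-FU the medians were 0.13, 0.06 and 0.06, and that of the targets without a match was the highest. Of the 29 tested targets with a match, 17 lay above 0 with DMSO and 16 with 5-FU. Of the 11 without a match, 5 lay above 0 with DMSO and 10 with 5-FU. Over all genes tested with a 3′ UTR, the medians of the 2303 genes with a match and of the 10788 without one were 0.03 and −0.0044 with DMSO and −0.0043 and −0.04 with 5-FU. Of the 6 targets higher in KO cells with DMSO, 5 held a match (*NOTCH1*, *AXL*, *IL6R*, *L1CAM* and *VAMP2*), and so did the 3 that were lower (*LDHA*, *KLF4* and *HNF4A*). Of the 11 targets without CACTGCC, *CD274* and *LRP6* held ACTGCCT. By either word, the medians between genotypes were 0.16 for 31 targets with and −0.09 for 9 without one with DMSO. With 5-FU they were 0.09 and 0.13. The shorter ACTGCC, the match to bases 2 to 7 of miR-34a, was in 39 of 41 targets (34.1% of genes), all but *CRKL* and *STMN1*. These counts and medians are descriptions without a test.

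**Figure D5:**
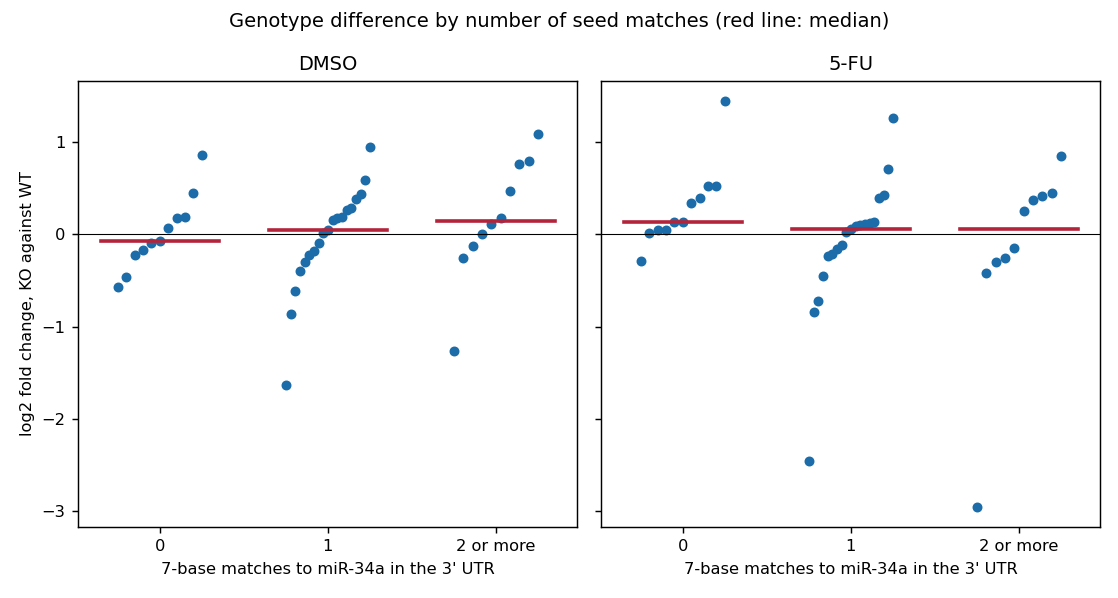
Log2 fold change between KO and *WT* cells of the 40 targets (points) with DMSO (left) and with 5-FU (right), by the number of CACTGCC matches in the 3′ UTR, with medians as lines. The medians rise from −0.08 to 0.14 with DMSO but not with 5-FU, and the points of each column lie on both sides of 0.

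Further genes bear on the same miRNAs. Their neighbouring genes were not examined as those of *NOTCH1* were, so that a difference shared with a neighbourhood would not be seen. Of 21 tested targets of miR-34 from the literature outside the 41, 2 were higher in KO cells with DMSO, *CDK6*, a kinase of the G1 phase (1.89, SE 0.07, FDR 1.25e-11), and the autophagy protease gene *ATG4B* (1.11, SE 0.07, FDR 1.59e-09). The transcription factor genes *MYC* (−0.74, SE 0.05, FDR 2.2e-08) and *MYB* (−0.91, SE 0.10, FDR 2.72e-06) were the 2 that were lower. With 5-FU, 7 of the 21 were higher, among them *CCNE2*, which encodes cyclin E2 (2.64, SE 0.10, FDR 9.86e-12), *CDK6* (1.44, SE 0.08, FDR 1.53e-09), *CDC25A*, a CDK phosphatase (1.35, SE 0.07, FDR 8.69e-10), and *ATG4B* (1.11, SE 0.07, FDR 7.39e-09). *MYC* was the 1 that was lower (−0.98, SE 0.06, FDR 2.91e-09). Over all genes, 9.10% were higher and 4.97% lower in KO cells with DMSO, and 7.58% and 10.6% with 5-FU. Of these 21, 3 rose (18.5% of all genes) and 7 fell (9.38%) with 5-FU in *WT* cells. In KO cells 4 rose (13.3%) and 0 fell (12.0%), and 5 of the 21 had a positive interaction (3.42%). Several of the 21 are cell cycle genes, and the part of the cell cycle in these values was not tested. Their median log2 fold change was −0.09 with DMSO and 0.35 with 5-FU, against 0.06 and 0.09 for the 40 targets tested above. Since targets assigned to cell cycle or apoptosis families were left out of the latter, the lists differ in kind.

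Of 18 genes of miRNA processing and silencing, *AGO2*, the Argonaute protein that can cleave RNA, was lower in KO cells with DMSO (−0.97, SE 0.07, FDR 1.13e-08) and with 5-FU (−0.67, SE 0.07, FDR 2.26e-06). *TNRC6C*, a partner of Argonaute proteins (0.76, SE 0.07, FDR 2.03e-07), and *DCP2*, a decapping enzyme (0.60, SE 0.10, FDR 0.000179), were higher in KO cells with 5-FU. *AGO4* fell with 5-FU in *WT* (−0.82) and KO cells (−0.91). In all, 0 of the 18 were higher (9.10% of all genes) and 1 lower (4.97%) in KO cells with DMSO. With 5-FU, 2 were higher (7.58%) and 1 lower (10.6%). In response to 5-FU, 0 rose (18.5%) and 1 fell (9.38%) in *WT* cells, and 1 rose (13.3%) and 1 fell (12.0%) in KO cells. The part of these genes in the levels of the targets was not tested, and their neighbouring genes were not examined either.

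Markers of other cell types were near 0 apart from single genes. *PTPRC* and *CD3E* of leukocytes, *PECAM1* and *CDH5* of endothelium and *COL3A1*, *DCN* and *LUM* of fibroblasts did not reach 20 counts in any library. The fibroblast sum, which was nearly all *COL1A1*, was 22.1 to 27.0 CPM in *WT* and 46.5 to 51.0 CPM in KO libraries with DMSO, and 49.97 to 60.4 and 70.3 to 71.7 CPM with 5-FU. The leukocyte sum, nearly all *CD68*, was 15.2 to 19.4 CPM with DMSO and 32.9 to 36.3 CPM with 5-FU. The endothelial sum, mostly *VWF*, was at most 1.86 CPM except in *WT* cells with 5-FU, where it was 6.14 to 6.43 CPM.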

How the data were processed

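RNA of HCT116 cells in the 4 groups was sequenced by the authors. Alignment to GRCh38 and counting per ENSEMBL gene were done in CLC Genomics Workbench, and raw counts per gene symbol were deposited. Libraries were assigned by their titles. Headers of *WT* files with 5-FU, replicates 2 and 3, number them 1 and 2. The 41 targets and all gene lists were chosen with earlier results of these data known.

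Counts were scaled by upper-quartile factors (0.955 to 1.05) and fitted in edgeR 4.0.16 (R 4.3.3) with a mean per group, by the two-sided quasi-likelihood test. SE is the absolute log2 fold change divided by the root of F. The variation between replicates was 6.72% (biological coefficient of variation). The thresholds were those of the paper's methods. P-values measure only the spread between these libraries. The paper's DESeq2 and RUVg steps served as alternatives, with DESeq2 1.42.0. The fit was tested on simulated data. Values in every library are given for targets called between genotypes or for the interaction, up to the 8 of largest change per comparison, and for *SIRT1*, *MET*, *CD44*, *NOTCH1*, *JAG1* and *CD274*. Genes outside the 41 are named where called, up to 5 per list. Lists comprised other miR-34 targets (22 genes), miRNA machinery (18), Notch pathway (32), receptor ligands and partners (11), NuRD (11), S-phase (43) and G2/M-phase genes (54, Seurat 5.3.0) and cell type markers. Of 60580 symbols, 37126 matched 1 annotated gene and 18717 had a 3′ UTR. Read strand was not stated in the sources used here, so that overlapping antisense genes cannot be told apart.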

Additional observations from a re-analysis of the deposited data

Results flagged for a closer look

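The 5-FU response of 6 targets differed between the genotypes by the interaction test of edgeR (FDR < 0.05 and a fold change > 1.5), with positive values where KO cells responded more upward. On the log2 scale it was 0.99 for *CD274*, 0.82 for *ULBP2* and 1.09 for *GMNN*, and −0.67 for *IL6R*, −0.84 for *L1CAM* and −1.69 for *HNF4A*. No group could be searched for single outlying libraries, since each held 3 libraries or fewer.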

How the results depend on the processing

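Of 46 calls of targets over the 5 comparisons, 39 were kept when each library was left out in turn. The others were *AXL* and *LDHA* between genotypes with DMSO, *L1CAM*, *NAMPT* and *LDHA* for 5-FU in *WT* cells, and *HNF4A* for 5-FU in KO cells and for the interaction. Leaving out 1 library gave 5 to 6 higher and 2 to 4 lower targets in KO cells with DMSO, 4 to 5 higher and 4 lower with 5-FU, 8 to 10 higher and 1 to 5 lower for 5-FU in *WT* cells, 7 higher and 3 to 5 lower for 5-FU in KO cells, and 3 to 4 positive and 2 to 3 negative interactions. Over the same fits the median log2 fold changes ranged from 0.04 to 0.09, 0.06 to 0.10, 0.04 to 0.08, −0.03 to 0.00 and −0.11 to −0.021, in this order.

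Without a minimum fold change, the higher and lower targets were 15 and 12 (KO against *WT*, DMSO), 15 and 9 (5-FU), 17 and 16 (5-FU in *WT* cells), 17 and 16 (5-FU in KO cells) and 11 and 9 (interaction). With at least 20 counts in every library, 2 targets were lower in KO cells with 5-FU, since *HNF4A* and *CSF1R* were not tested. Total counts only, chosen after seeing the data, gave medians of 0.17 between genotypes with 5-FU and 0.061 for 5-FU in KO cells. DESeq2 gave 0.037 for the interaction. The edgeR fit used above gave 0.09, −0.03 and −0.04 for these, and 0.06 for 5-FU in *WT* cells. Under the same alternatives the medians over all genes moved upward too, by 0.08, 0.09 and 0.08. In the RUVg fit, by edgeR, 0 targets rose and 0 fell with 5-FU in either genotype (9 in *WT* and 7 in KO cells at an unadjusted p under 0.05, against 33 and 33 by edgeR without RUVg and 33 and 31 by DESeq2 without RUVg), 1 interaction was positive and 3 were negative, and the medians for 5-FU were 0.30 in *WT* and 0.13 in KO cells. Its factor lay between treatments, and 9 of the called responses to 5-FU changed sign, *NOTCH1* (−2.03 in *WT*, −1.59 in KO cells), *L1CAM* (−1.35, *WT*), *INHBB* (−0.56 and −0.57), *NAMPT* (2.81, *WT*), *LDHA* (1.77 and 1.39) and *KLF4* (−0.14, KO). There, calls over all genes fell from 1467 higher to 783 between genotypes with DMSO and from 1073 to 466 negative interactions. With 20 counts in every library, 13191 genes were tested, and 513 in place of 802 were lower between genotypes with DMSO, 1127 in place of 1702 with 5-FU, and 1910 in place of 2978 (*WT*) and 1380 in place of 2137 (KO) rose with 5-FU. DESeq2 called 674 negative interactions in place of 1073. Apart from the filter, the causes were not tested.

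Replicate numbers did not pair the libraries. Same-numbered libraries correlated by −0.15 to 0.08 in their deviations from the group means, and 5 of 18 pairings were best with the same number. With the replicate block by the labels, 8 targets rose with 5-FU in *WT* cells in place of 9, and no other call was lost. By the numbers of the file headers, chosen after seeing the data, 0 calls were lost. Targets at few counts, *CSF1R* and *HNF4A*, are limited by depth, and at the lowest and highest depth 3 counts equal 0.131 and 0.0768 CPM.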
